A study of Mus musculus with 13 samples.

Results

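Hox genes encode the homeodomain transcription factors that give cells along the head-to-tail axis their position, and in mammals they stand in 4 chromosomal clusters. The 38 Hox genes described here were chosen by name from the 21938 protein-coding genes of the GENCODE annotation: 10 of the HoxA cluster, 10 of HoxB, 9 of HoxC and 9 of HoxD. The peak lists came from 3 cell types of the mouse oligodendrocyte lineage, with 1 library for each mark and cell type. Neural stem cells (NSCs) were a commercial culture from embryonic cortices (E14.5), grown with EGF and FGF, for which the labels give the strain C57BL/6 and the growth protocol CD-1. Oligodendrocyte precursor cells (OPCs) and newly formed oligodendrocytes (NFOs) were immunopanned from brains of C57BL/6 mice at P7, OPCs with an antibody to PDGFRα and NFOs with one to GalC, after a lectin (BSL-1) step against microglia and endothelial cells. All cells were untreated. H3K4me3, H3K27me3 and, in OPCs and NFOs, the transcription factor OLIG2 were mapped by ChIP-Seq. With 1 library per condition no difference between cell types was tested.

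Within a Hox cluster the genes lie in the order in which they act along the body axis, from paralog group 1 at the anterior end to group 13 at the posterior end, and genes of the same number in different clusters are paralogs. H3K27me3 is deposited by Polycomb repressive complex 2, marks silent developmental genes, and typically spreads over whole Hox clusters where these are not used, as in the forebrain. H3K4me3 marks active or poised promoters, and a promoter that carries both marks is called bivalent.

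Of the lists read as a check on the labels, H3K4me3 lay near all 4 OPC markers, among them Pdgfra and Sox10, in both OPCs and NSCs and near 3 in NFOs. It lay near all 4 NSC markers in both NSCs and OPCs and near 2 in NFOs, so these lists did not tell NSCs from OPCs. It lay near 2 of the 5 myelin genes on the list, which holds genes such as Mbp and Mog, in each of NSCs and OPCs and near none in NFOs, so the defining markers of that label had no listed H3K4me3. Across cell types from NSC to NFO it lay near 4, 4 and 3 of 4 neuronal genes, 2, 2 and 1 of 4 astrocyte genes, 0, 1 and 0 of 4 microglial genes, and 0 of 3 endothelial genes in each. The number of listed peaks ran from 12688 to 36069 in the 6 histone lists. The lists carry no read totals, so depth is unknown. The peak names mark NSC reads as single-end and the other reads as paired-end. In the text below "near the TSS" means within 2 kb of any annotated transcription start site of the gene.

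H3K27me3 lay near the TSS of all 38 Hox genes in all 3 cell types. The share over all protein-coding genes, in the order NSCs, OPCs and NFOs, was 15.1%, 16.4% and 9.56%. The Hox peaks were long: 35 Hox genes in NSCs, 34 in OPCs and 24 in NFOs had an H3K27me3 peak of at least 10 kb near the TSS, against 0.779%, 0.574% and 0.447% of protein-coding genes. Neighbouring genes shared such peaks, of which the clusters held 11, 17 and 11. H3K27me3 filled a median of 100% of the 2 kb flanks of the Hox TSSs in both NSCs and OPCs, and 88.4% in NFOs. In other genes with the mark the median was 6.83%, 7.01% and 11.3%. The highest peak of a Hox gene had a median fold enrichment over control of 5.01, 6.44 and 5.41 in the same order, above medians of 3.78, 4.63 and 4.18 for the other marked genes. Genes that shared a peak each counted its value, as every HoxA gene did in NSCs. Hoxb1, which specifies a single hindbrain segment, had the highest H3K27me3 fold of the 38 in NSCs, 7.59. Its 10.4 in OPCs came after Hoxb4 with 10.5, and its 7.47 in NFOs after Hoxb4 with 12.4, Hoxb3 with 8.90 and Hoxc11 with 8.13. The Hoxb4 peaks of both cell types and the Hoxc11 peak, 1141 bp wide, each had an edge within 10 bp of an H3K4me3 peak edge. The lowest values were 4.38 at Hoxd1 in NSCs, 4.69 at Hoxd12 in OPCs and 4.53 at Hoxb13 in NFOs. Raising the fold threshold to 5 left H3K27me3 at 19 Hox genes in NSCs, at 36 in OPCs and at 35 in NFOs. The wide NSC peaks over HoxA and HoxD, with 4.86 and 4.92, lay just under that value.

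Each cluster was then measured from the first to the last member gene in mm10. HoxA (chr6:52162417-52260880, 98.5 kb) was covered from end to end by 1 H3K27me3 peak in NSCs. That peak was 117916 bp wide, the widest of its library. In OPCs 3 peaks covered 97.1% of HoxA, and in NFOs 6 peaks covered 94.8%. HoxC (chr15:102921103-103036852, 116 kb) was covered to 96.2% by 4 peaks in NSCs, to 94.8% by 7 in OPCs and to 89.5% by 12 in NFOs. HoxD (chr2:74668310-74765142, 96.8 kb) was covered to 94.3% by 4 peaks, to 92.3% by 9 and to 82.9% by 15. As listed, HoxA, HoxC and HoxD thus kept the same order of cell types for coverage and the opposite order for the number of pieces. With gaps under 1.5 kb closed, coverage was 100%, 98.6% and 99.1% for HoxA and 95.8%, 99.6% and 93.6% for HoxD, so neither kept that order. HoxC kept it, with 100%, 99.0% and 97.2%. The pieces were then 1, 1 and 1 for HoxA, 1, 1 and 2 for HoxC and 3, 1 and 4 for HoxD.

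HoxB (chr11:96194316-96368256, 174 kb) differed from the others in layout. Its span holds a stretch between Hoxb13, a gene of prostate and tail development, and Hoxb9 with long gaps in H3K27me3. The longest was 26634 bp in NSCs, 10481 bp in OPCs, where short peaks divided the stretch, and 27866 bp in NFOs. Over the whole span H3K27me3 covered 69.3%, 72.5% and 65.2% in NSCs, OPCs and NFOs, in 11, 20 and 25 peaks. From Hoxb9 to Hoxb1 alone it covered 91.4%, 93.8% and 87.8%, in 6, 7 and 11 peaks. OPCs were above NSCs on both measures of HoxB.

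**Figure D1:**
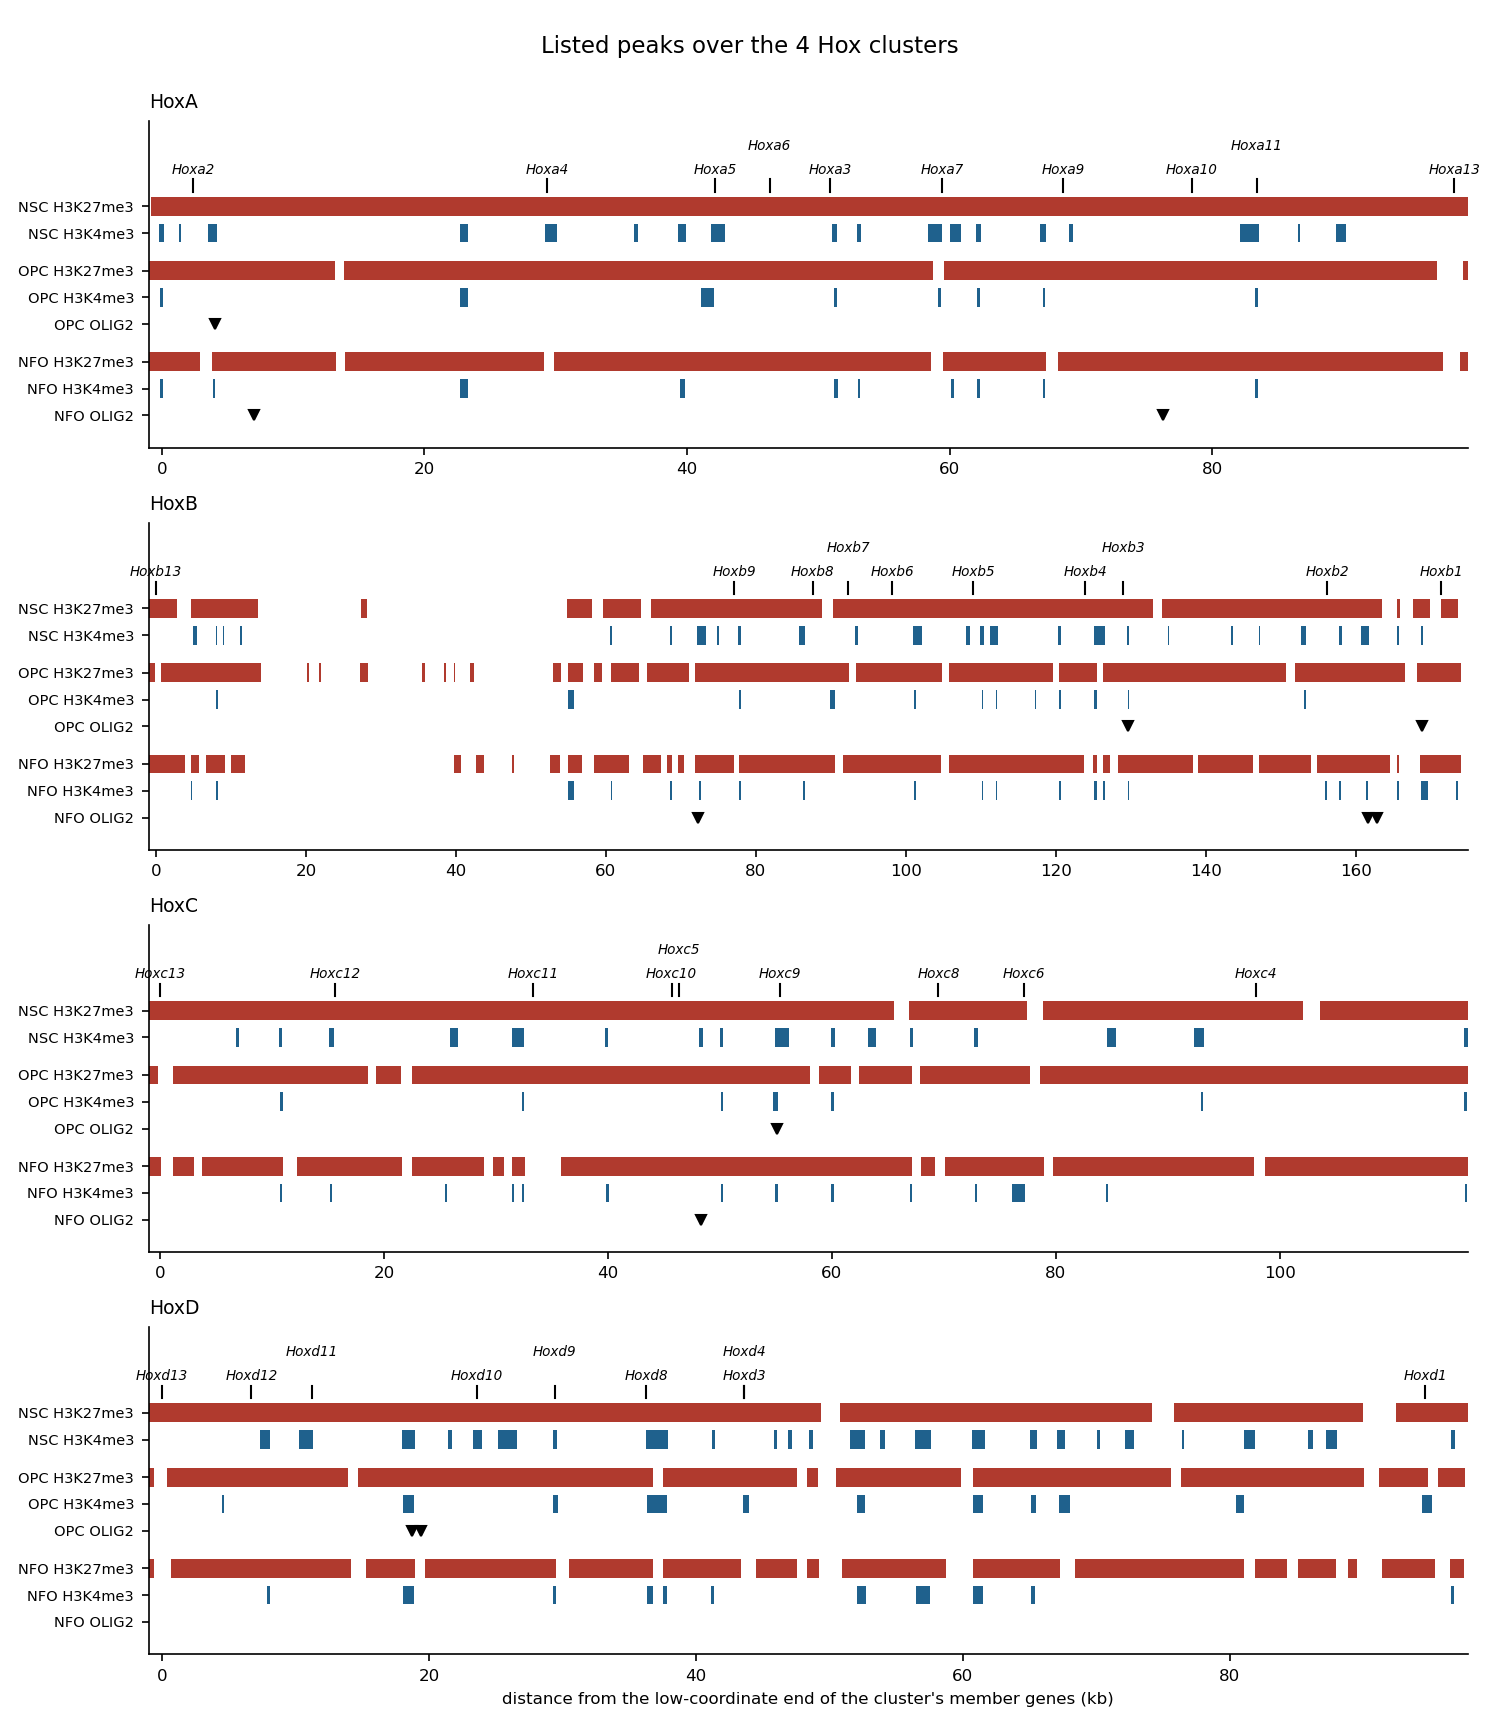
Listed peaks over the 4 Hox clusters, drawn to scale in kb from the low-coordinate end. Red bars are H3K27me3 peaks, blue bars H3K4me3 peaks and black triangles OLIG2 peaks of each cell type, and ticks mark the 5′ end of each gene as annotated, which for Hoxa3, Hoxc5 and Hoxd3 lies beyond a neighbouring gene. H3K27me3 covers nearly all of HoxA, HoxC and HoxD, and HoxB has a stretch with long gaps between Hoxb13 and Hoxb9.

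Over the 4 clusters together H3K27me3 covered 86.9%, 86.8% and 80.5% of the span in NSCs, OPCs and NFOs, where all listed peaks covered, of the genome, 0.943%, 0.802% and 0.516%. Hox peaks made up 10, 15 and 11 of the 100 widest H3K27me3 peaks of these lists. Separate Hox peaks numbered 20, 39 and 58. These counts do not share 1 resolution. The shortest distance between neighbouring H3K27me3 peaks anywhere in the NSC list was 1097 bp, against 685 and 713 bp in the OPC and NFO lists, so a break shorter than 1097 bp could not appear in the NSC list. With all gaps under 1.5 kb closed, the counts were 12, 10 and 15 and the coverage 89.3%, 92.4% and 88.6%. The rise in the number of pieces from NSCs to OPCs was thus not seen at a common resolution.

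**Figure D2:**
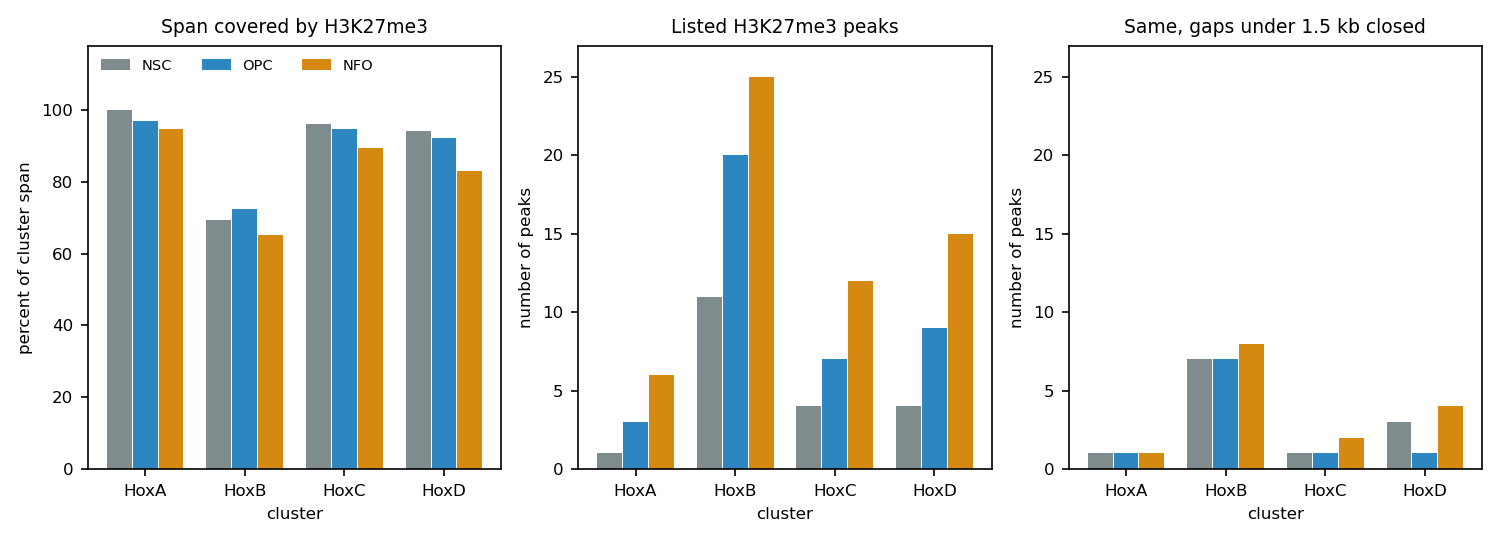
Percent of each Hox cluster covered by listed H3K27me3 peaks (left), the number of those peaks (middle) and the number after gaps under 1.5 kb were closed (right), 1 library per bar. The number of listed peaks is lowest in NSCs and highest in NFOs in every cluster, for HoxB 11, 20 and 25, and with short gaps closed it is 7, 7 and 8.

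Some of the breaks fell at Hox start sites. A TSS lay outside the H3K27me3 peaks for 2 Hox genes in NSCs (Hoxb1 and Hoxb3), 7 in OPCs and 16 in NFOs. Among all genes with H3K27me3 near the TSS the share with a TSS outside the peaks was 90.8%, 91.5% and 89.5%, so marked genes mostly had a start site beside the mark, and Hox genes mostly had all of them within it. In OPCs the 7 genes were Hoxa7, Hoxa13, Hoxb13, Hoxc13, Hoxd8, Hoxd11 and Hoxd13. All 4 genes of paralog group 13, the most posterior and the ones that shape digits, the urogenital tract and hair, were among them with every annotated TSS uncovered. In NFOs Hoxa13 and Hoxd13 were again fully uncovered, joined by Hoxa4, Hoxb4, Hoxb9 and Hoxc11. With gaps under 1.5 kb closed, 1 Hox gene in each of NSCs and OPCs and 2 in NFOs had a TSS outside.

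The Hoxd8 gap recurred in both later cell types, at chr2:74705134-74705825 in OPCs (692 bp) and chr2:74705132-74705878 in NFOs (747 bp). The base composition of these gaps was measured from the reference genome. The 7 OPC gaps that held a Hox TSS had a median G + C of 69.7%, with a range of 60.1% to 77.9%, and the 32 other OPC gaps a median of 51.6%. In NFOs the 17 gaps with a TSS had a median of 61.1% and the 39 others 50.9%. The whole clusters had 48.9% to 50%. In NSCs the 17 gaps, all at least 1242 bp long, had a median of 47.6%, and the 2 with a TSS did not stand out, at 47.4% and 48.3%. In OPCs and NFOs the gaps with a Hox TSS were thus richer in G + C than the gaps without one, which were near the whole clusters. Start sites under H3K27me3 were not measured in this way, so the values do not set covered against uncovered start sites. The part of composition in the gaps was not tested.

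**Figure D3:**
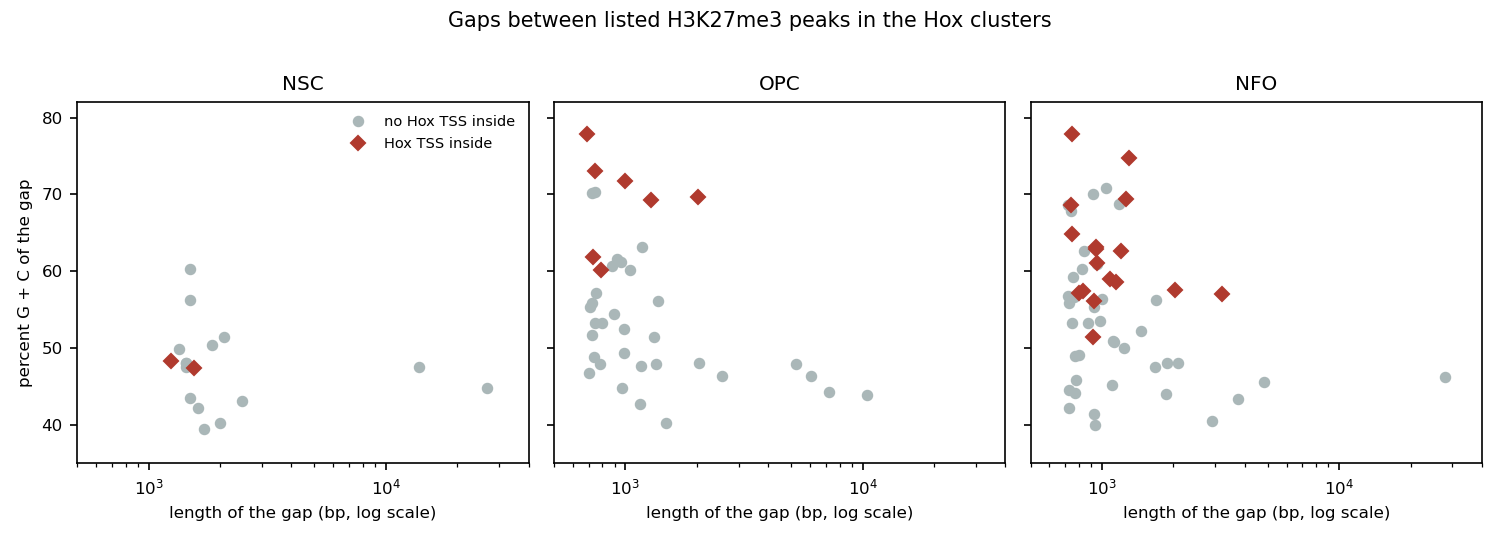
Each point is 1 gap between listed H3K27me3 peaks in a Hox cluster, with its length in bp on a log axis and its G + C content in percent. Red diamonds hold a Hox TSS; in OPCs they lie between 60.1% and 77.9% G + C, and in NSCs no gap is shorter than 1242 bp.

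The bases just upstream of 3 start sites give examples of promoters left out of H3K27me3 and of a promoter within it. They are the last 30 bases before the RefSeq start site (GRCm38.p6, 5′ to 3′ on the strand of the gene), with each CG in capitals. Hoxa13 (chr6:52260881-52260910, minus strand) and Hoxd13 (chr2:74668195-74668224, plus strand) lay outside H3K27me3 in OPCs and NFOs. Hoxa11 (chr6:52245811-52245840, minus strand) lay within it and had H3K4me3 over the start site in all 3 cell types.
Hoxa13: ggCGgcCGcctggCGCGacccCGcagggCG
Hoxd13: gggaaagggCGggagCGagCGCGcCGCGga
Hoxa11: ggatagatttccaCGtcagcttaCGtctcc
Over 250 upstream bases Hoxa13 held 35 CG and Hoxd13 31, the former the most of the matched Hox promoters and the latter more than 94.8% of the 32851 RefSeq promoters, whereas Hoxa11 held 13, more than 68.5%. The median was 12.5 for Hox and 6.00 for all. The number of CG did not separate covered from uncovered promoters: Hoxa5 with 28 and Hoxa6 and Hoxd1 with 24 each were covered at the start site in all 3 cell types, and Hoxb4, uncovered in NFOs, held 14. RefSeq promoters were matched for 22 of the 38 genes.

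H3K4me3 was found near the TSS of 28 Hox genes in NSCs, 19 in OPCs and 23 in NFOs, or 73.7%, 50% and 60.5% of the 38. Over all protein-coding genes the shares were 64.3%, 60.8% and 43.6%, so the Hox share was below the background in OPCs and above it in the other cell types. The peaks rarely covered a start site. A TSS lay in an H3K4me3 peak for 9 Hox genes in NSCs, 6 in OPCs and 4 in NFOs, that is 23.7%, 15.8% and 10.5%, against 59.8%, 53.5% and 18.4% of protein-coding genes. The peaks were also narrow: near Hox genes the widest H3K4me3 peak had a median of 768, 413 and 241 bp, from NSCs to NFOs, where other marked genes had 2164, 1371 and 581 bp.

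Where H3K4me3 was present near a Hox TSS it overlapped H3K27me3, with the exception named below. Overlapping peaks of both marks were found near 28 Hox genes in NSCs, 18 in OPCs and 23 in NFOs, or 73.7%, 47.4% and 60.5%. The background was 8.58%, 5.45% and 2.90%. Since all 38 genes carried H3K27me3, this count follows the H3K4me3 count, and Hoxa7 in OPCs was the only gene with both marks apart. H3K27me3 without H3K4me3 was left at 10, 19 and 15 Hox genes. Over the whole clusters all 84 NSC and 55 NFO H3K4me3 peaks, and 36 of 37 in OPCs, overlapped H3K27me3. H3K27me3 covered 86.9%, 86.8% and 80.5% of that span in NSCs, OPCs and NFOs. Outside the clusters 7590, 2154 and 1701 H3K4me3 peaks overlapped it, in full lists of 33292, 18284 and 21736. Of the overlapping peaks 0%, 11.1% and 21.8% in the clusters shared an edge with H3K27me3 within 10 bp, against 8.96%, 32.7% and 45.0% elsewhere. The cause of the shared edges was not tested.

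By paralog group, group 9, which patterns the thorax and includes the motor neuron regulator Hoxc9, had H3K4me3 near all 4 genes in all 3 cell types. Group 3, active in the caudal hindbrain, had it near all 3 of its genes in each. Group 13 had it near 0 of 4 genes in any cell type. Group 6 had it near 1 of 3, Hoxc6 in NFOs, and group 10, of the lumbar region, near Hoxa10 and Hoxd10 in NSCs and at no gene afterwards. Both genes of group 2 and both of group 12 had H3K4me3 in NSCs and NFOs and not in OPCs. For Hoxd12 of group 12 the peaks in NSCs and NFOs were below the fold threshold used in the study. In all, 16 genes (42.1%) had it in all 3 cell types, close to the 41.8% of all protein-coding genes. It was found in no cell type at 8 (21.1%), against 33.6% of all: Hoxa6, Hoxa13, Hoxb6, Hoxb13, Hoxc4, Hoxc10, Hoxc13 and Hoxd13. Among the 16 genes, Hoxb3 and Hoxc11 in OPCs and Hoxd1 in NFOs had only peaks below that threshold.

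Among HoxA genes, Hoxa11, needed for forelimb and kidney development, had a fold enrichment of its highest H3K4me3 peak of 8.37, 8.0 and 7.66 in NSCs, OPCs and NFOs, the order kept in what follows. The peak covered both annotated start sites in each but narrowed from 1461 bp to 257 and 206 bp. Hoxa9, a regulator of blood stem cells, varied as little, with 5.51, 5.16 and 5.31. The highest peak was picked in each cell type on its own, so for some genes the values come from different places. Hoxa3, required for thymus and parathyroid, had 7.58, 5.25 and 7.28, with OPCs lowest. Its OPC value came from another place, and the place of its NSC and NFO peaks had 4.81 in OPCs. Hoxa7 had 8.64, 4.34 and 4.62, each from a different place. Hoxa2, which sets the identity of the second branchial arch, had 5.99 in NSCs and 5.50 in NFOs and no listed peak in OPCs. Hoxa5, a lung and vertebral gene, had 3.55 and 3.74 in NSCs and OPCs and none in NFOs, while Hoxa4 at 4.16 and Hoxa10 at 4.63 had a peak in NSCs alone.

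Among HoxB genes Hoxb9, a thoracic gene, had 5.53 in NSCs, 9.89 in OPCs and 9.06 in NFOs. Hoxb4, known from blood stem cell expansion, stayed at 8.39, 7.35 and 8.68, and Hoxb5 had 9.38, 6.16 and 6.13. Hoxb3 had 9.46, 2.89 and 5.78, the OPC value being below the fold threshold of 3.5 used in the study. Hoxb8, active in myeloid cells, had 6.42, 3.74 and 4.79, and its OPC peak was the same one counted for Hoxb7. That OPC peak lay at another place than the NSC and NFO peaks of Hoxb8. Hoxb7 itself had 6.05 in NSCs. Hoxb2 had 9.14 in NSCs and 6.00 in NFOs, at different places, and the place of the NSC peak had 3.98 in NFOs. Hoxb1 had no H3K4me3 in NSCs or OPCs and a fold of 12.6 in NFOs, in a 257 bp peak at chr11:96367691-96367947, 1433 bp from its nearest TSS.

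In HoxC, Hoxc9 had 6.38, 3.64 and 5.91 and Hoxc11 3.56, 3.39 and 5.38. The OPC value of Hoxc11 was below the fold threshold used in the study. Hoxc8, of thoracic and forelimb patterning, had 4.98 in NSCs and 4.30 in NFOs, and Hoxc12 had 7.51 and 5.90. Hoxc5 had 4.21 and 4.11 in NSCs and OPCs, at different places, and the place of the OPC peak had 3.21 in NSCs. Hoxc6 appeared in NFOs with a peak of 1181 bp over its TSS at a fold of 3.77. The highest H3K4me3 folds of the cluster were not near a start site. A place 3958 bp from the nearest Hoxc9 TSS (chr15:102980990-102981367) had 11.3, 10.9 and 9.56, and one 4670 bp from the Hoxc12 TSS (chr15:102931708-102932087) had 7.95, 11.1 and 5.69.

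In HoxD, Hoxd9 rose in the listed fold from 4.77 in NSCs to 9.25 in OPCs and 13.8 in NFOs, the highest value in the Hox clusters of the 3 H3K4me3 lists, while its peak narrowed from 359 to 326 and 257 bp. Hoxd8 had the broadest Hox peaks, 1613 bp in NSCs and 1513 bp in OPCs, with folds of 6.75, 8.53 and 5.92. In NFOs it was split into 2 peaks on either side of the uncovered stretch. Hoxd4 had 10.1, 3.71 and 6.17, Hoxd3 6.19, 5.67 and 5.04, and Hoxd1 6.29, 5.01 and 3.06. The values of Hoxd4 came from different places, and the place with 10.1 in NSCs had 3.86 in OPCs and 4.61 in NFOs. The OPC peak of Hoxd1 lay at another place than its NSC and NFO peaks. Hoxd12 had 3.26 in NSCs and 3.25 in NFOs, and Hoxd10 at 4.16 and Hoxd11 at 3.12 had a peak in NSCs alone. The values of Hoxd11 and Hoxd12 and the NFO value of Hoxd1 were below the fold threshold used in the study. The NFO peak of Hoxd12 also missed the FDR threshold of the study. No error can be given for these folds, which come from single libraries.

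**Figure D4:**
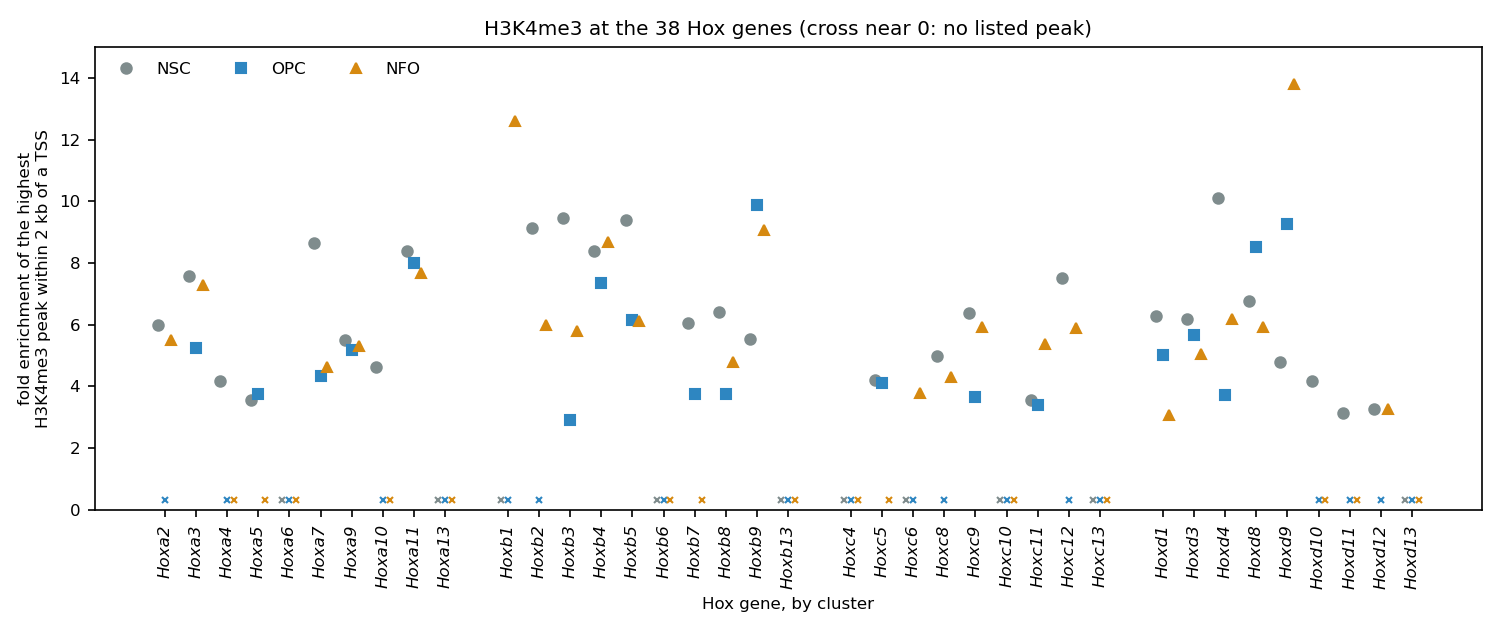
Fold enrichment of the highest listed H3K4me3 peak within 2 kb of a TSS for each of the 38 Hox genes in NSCs (circles), OPCs (squares) and NFOs (triangles), with crosses for genes without a peak. For some genes the highest peak lies at a different place in each cell type. The highest values are Hoxd9 (13.8) and Hoxb1 (12.6) in NFOs, and the 4 genes of group 13 carry crosses throughout.

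Across the clusters the H3K4me3 peaks of the 3 cell types merged into 95 separate places, of which 25 were listed in all 3. Another 32 were listed in NSCs alone, 5 in OPCs alone and 5 in NFOs alone. Of the 37 OPC places 31 were also NSC places, and of the 52 NFO places 46 were. H3K4me3 covered 9.98% of the cluster span in NSCs, 3.12% in OPCs and 3.67% in NFOs. Among the 95 places, 54 were within 2 kb of a Hox TSS and 12 on one, and many held an unbroken run of A or T. For the place with a run that was listed in all 3 cell types and had the highest NSC fold in each cluster, 30 bases of the plus strand of GRCm38.p6 are given with the run in capitals. The run lay inside the NSC peak each time, whereas the OPC and NFO peaks of the place had a border at the run. The stretches lie at chr6:52245904-52245933 beside Hoxa11, chr11:96314727-96314756 between Hoxb5 and Hoxb4, chr15:102981244-102981273 by Hoxc9 and chr2:74729089-74729118 by Hoxd4.
HoxA: gtcccggcTTTTTTTTTTTTTTaacccccc
HoxB: cacaccAAAAAAAAAAAAAAAAAAgtcctt
HoxC: catcttgTTTTTTTTTTTTTTTTTaatcct
HoxD: gtgatttAAAAAAAAAAAAAAAAgaaagaa
The feature was noticed while reading these sequences and then counted, so it was not chosen independently of the data.

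The 4 clusters held 97 runs of 12 or more A or T. Of these, 72 lay in an H3K4me3 peak in NSCs, 18 in OPCs and 22 in NFOs, that is 74.2%, 18.6% and 22.7% of the runs, in 9.98%, 3.12% and 3.67% of the span. Counted from the peaks, those that held a run or lay within 100 bp of one were 58 of 84 Hox H3K4me3 peaks in NSCs, 27 of 37 in the OPC list and 50 of 55 in the NFO list. These are 69.0%, 73.0% and 90.9%. The shares among all other H3K4me3 peaks of the same lists were 62.9%, 38.9% and 62.9%. Of 250 bp tiles of the whole genome 5.55% held a run or lay within 100 bp of one. Peaks that held a run themselves were fewer in OPCs and NFOs: 57 of 84, 12 of 37 and 12 of 55 Hox peaks, or 67.9%, 32.4% and 21.8%, against 60.0%, 19.1% and 17.3% of other peaks and 2.96% of tiles. The merged places, which are wider where cell types overlap, held a run in 24 of 25 cases listed in all 3 cell types, 22 of 28 listed in 2 and 14 of 42 listed in 1.

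Runs and peaks also met outside the Hox clusters. In the 133 other NSC H3K27me3 peaks of 10 kb or more, 73.3% of runs lay in an H3K4me3 peak, and the shares were 14% for the 129 such OPC peaks and 23.6% for the 107 of NFOs. The NSC H3K27me3 list shared the feature, with a run in 87.9% of its peaks outside the Hox clusters against 22.9% in OPCs and 17.1% in NFOs. Without the H3K4me3 peaks within 100 bp of a run, 14 Hox genes in NSCs, 9 in OPCs and 3 in NFOs had H3K4me3 near the TSS, with a background of 37.1%, 41.1% and 24.9% counted the same way. Hoxc9 was the one gene left in all 3 cell types under that rule. Leaving out only the peaks that held a run gave 14, 16 and 18 Hox genes, with a background of 37.7%, 49.3% and 37.5%, and then Hoxa7, Hoxb3, Hoxb5 and Hoxc9 were left in all 3. The NFO count thus depended on the distance allowed. Under the 100 bp rule Hoxc11 and Hoxd12 were the others in NFOs, whereas the strongest NFO peaks, at Hoxd9 and Hoxb1, both stood by a run. The NFO peak of Hoxd12 passed neither the fold nor the FDR threshold of the study. The part of the runs in these peaks was not tested, and the lists hold no input signal.

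**Figure D5:**
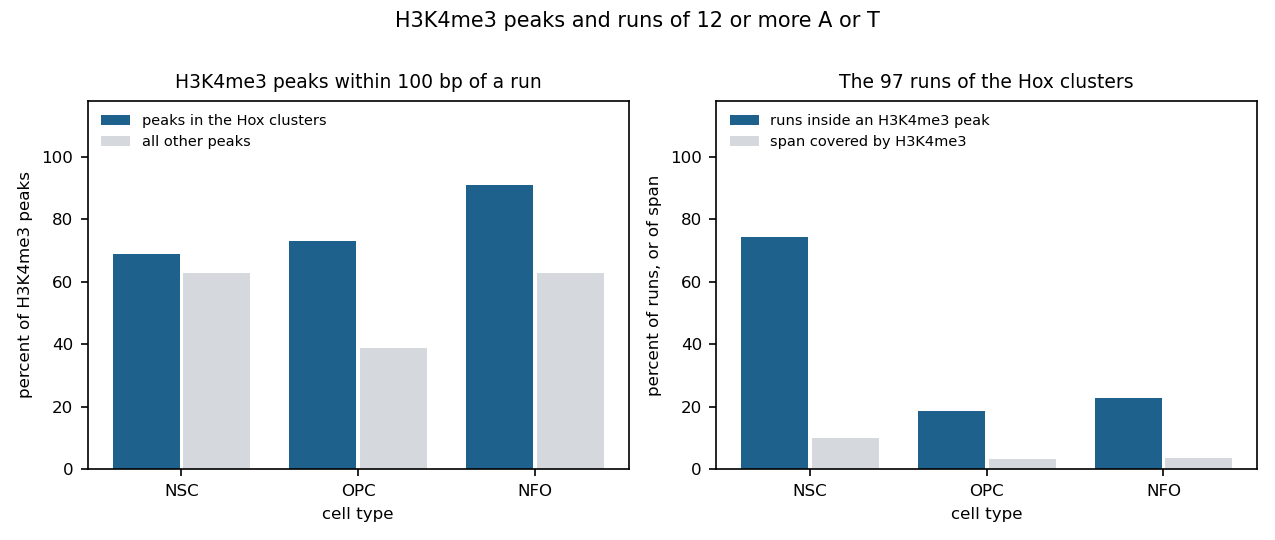
Left, percent of H3K4me3 peaks within 100 bp of a run of 12 or more A or T, for peaks in the Hox clusters and all other peaks. Right, percent of the 97 runs of the Hox clusters that lie in an H3K4me3 peak, beside the percent of the span that such peaks cover; in NSCs these are 74.2% and 9.98%.

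OLIG2, the helix-loop-helix factor that specifies the oligodendrocyte lineage, had 6 listed peaks inside the Hox clusters in OPCs and 6 in NFOs. No OPC peak overlapped an NFO peak, but the share of all OPC peaks that overlap an NFO peak is not given here. With the study's filter of fold enrichment above 5 and FDR below 0.05, 5 remained in each. The density was 12.4 peaks per Mb in both, where the genome held 2.71 per Mb in OPCs and 6.20 in NFOs. By the gene rule of a peak in the body or up to 5 kb upstream, 8 Hox genes had a peak in OPCs and 6 in NFOs, or 21.1% and 15.8%, against 16.5% and 28.2% of protein-coding genes. All 12 peaks lay in H3K27me3 of the same cell type, which covered 86.8% of the cluster span in OPCs and 80.5% in NFOs. Of the OPC peaks 3 also overlapped H3K4me3 of OPCs and 5 that of NSCs, and of the NFO peaks 1 overlapped H3K4me3 of NFOs and 3 that of NSCs. H3K4me3 covered 3.12% of the span in OPCs, 3.67% in NFOs and 9.98% in NSCs. The shares over all OLIG2 peaks are not given here.

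In OPCs the highest OLIG2 peak lay 250 bp upstream of a Hoxc9 TSS (chr15:102976074-102976303) with a fold of 11.8, in an intron of the long Hoxc5 annotation. A pair lay in HoxD, with 10.6 at 4207 bp upstream of Hoxd10 (chr2:74687602-74687831) and 6.07 over a Hoxd11 exon (chr2:74686952-74687181). One lay 1634 bp upstream of the Hoxa2 TSS (chr6:52166350-52166579) with 8.0, over an exon of the antisense RNA Hoxaas2. Hoxb3 had a peak in an intron with 6.22, and the peak 2583 bp upstream of Hoxb1 had 3.65. In NFOs the highest, with 16.1, lay in introns of Hoxc10 and Hoxc5 (chr15:102969280-102969515). The next, with 11.1, lay 4856 bp upstream of Hoxb9 (chr11:96266483-96266718). Hoxa10 had a peak in an intron with 7.40, a pair downstream of Hoxb2 had 6.57 each, and a peak over an untranslated exon part of Hoxa3 had 3.54. HoxD had 0 OLIG2 peaks in NFOs.

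OLIG2 binds E-boxes, which have the form CANNTG and read the same on both strands. Of the 6 OPC peaks in Hox clusters 3 held at least 1 CANNTG and of the 6 NFO peaks 2 did, while 70.4% of all OPC and 69.3% of all NFO OLIG2 peaks did. The form CAGCTG was in 0 and 1 of them, and in 13.6% and 10.1% of all peaks. CAGATG or its reverse complement CATCTG was in 0 and 1, and in 18.9% and 17.4% of all. The 5 matches are given within 30 bases of the plus strand of GRCm38.p6, the E-box in capitals. They lie at chr6:52166520-52166549 by Hoxa2, chr11:96324052-96324081 in Hoxb3 and chr2:74687810-74687839 upstream of Hoxd10 in OPCs, and at chr11:96266534-96266563 upstream of Hoxb9 and chr11:96355791-96355820 downstream of Hoxb2 in NFOs.
OPC Hoxa2: tttgaaatggacCAAGTGatcagaatgccc
OPC Hoxb3: actgctcaggacCAGGTGcagcagaaattc
OPC Hoxd10: gacccccctcccCAAATGtcgttgtgttcc
NFO Hoxb9: aatgtcctatgaCATCTGcgtatcttcctc
NFO Hoxb2: aaagagacttatCAGCTGgggctttgattt
The highest peaks, by Hoxc9 in OPCs and in Hoxc10 in NFOs, held none of these forms. A run of 12 or more A or T was in 4 of the 6 OPC and 2 of the 6 NFO peaks, or 66.7% and 33.3%, and in 67.5% and 65.8% of all other OLIG2 peaks.

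The clusters also encode microRNAs that target Hox transcripts and others. Their mature 5p forms are printed as in RefSeq (GRCm38.p6), with the seed (bases 2 to 8) in capitals, since the seeds show 2 families spread over the clusters. Mir10a stands in HoxB and Mir10b in HoxD, and both have the seed ACCCUGU. Mir196b stands in HoxA, Mir196a-1 in HoxB and Mir196a-2 in HoxC, and they have the seed AGGUAGU, the last pair sharing 1 mature form. Mir615 lies in HoxC with a seed of its own.
miR-10a-5p: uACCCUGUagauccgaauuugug
miR-10b-5p: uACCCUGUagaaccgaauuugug
miR-196a-5p: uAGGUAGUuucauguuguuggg
miR-196b-5p: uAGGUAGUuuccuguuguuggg
miR-615-5p: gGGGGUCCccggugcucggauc
H3K27me3 covered every base of all 6 microRNA loci in NSCs and OPCs. In NFOs it covered 4 of them, and none of the 85 bp of Mir196b (chr6:52230081-52230165) or the 102 bp of Mir196a-1 (chr11:96265164-96265265). These fell in gaps of 945 and 1459 bp, both under 1.5 kb. The former is also shorter than the 1097 bp below which no break appears in the NSC list. Of the 16 RNAs of the clusters, long noncoding RNAs such as Hotair and Hottip included, all 16 had H3K27me3 near the TSS in each cell type, and 15, 10 and 12 had H3K4me3. Hottip had H3K4me3 folds of 7.86, 4.59 and 8.81.

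Genes at the edges of the clusters and the partners of Hox proteins were marked differently. Of 10 edge genes found in the annotation 9, 7 and 6 had H3K4me3 and 5, 7 and 6 had H3K27me3 in NSCs, OPCs and NFOs. Evx2, a homeobox gene beside Hoxd13, carried both in all 3, with H3K4me3 folds of 5.70, 3.72 and 5.34 and H3K27me3 folds of 4.92, 6.5 and 5.73. Of the 9 Hox cofactor genes, the Pbx, Meis and Pknox genes whose products bind DNA with Hox proteins, 9, 8 and 7 had H3K4me3 and 2, 3 and 2 had H3K27me3. Meis1 had H3K4me3 folds of 14.3, 8.73 and 15.3 and Meis2 10.9, 7.46 and 5.99. Of 7 forebrain position genes 7, 7 and 4 had H3K4me3 and 6, 7 and 7 had H3K27me3, and of 5 hindbrain position genes 5, 5 and 3 had H3K4me3 and 3, 5 and 5 had H3K27me3.

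RNA immunoprecipitation (RIP-Seq), with an antibody to OLIG2 or with IgG as background, was deposited under titles that give NFOs, whereas the methods describe NSCs. Of the 38 Hox genes, 1 had a listed site in either library, Hoxc4. The background library is titled as input, and its antibody label is IgG. At Hoxc4 the OLIG2 library listed 2 sites with 11 tags in all and the background library 4 sites with 24 tags, more than the OLIG2 library. In full the OLIG2 library listed 101310 sites and the background library 83195. The share of all genes with a site is not given here, so the count of 1 among the 38 has no background.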

How the data were processed

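The 6 histone, 2 OLIG2 and 2 RIP-Seq peak lists were analysed as deposited. Per the methods, the authors aligned the reads with Bowtie2 (mm10), discarded those without a unique position, called broad histone peaks with MACS2 and OLIG2 peaks with SPP, and removed blacklisted regions. Versions are not given in the sources used here. The deposited fold enrichment is a ratio over control per peak, beside −log10 values of the p-value and FDR. RIP-Seq sites, called by the authors with ASPeak, carry deposited tag counts and a p-value. The 3 input libraries were not used. In the 6 histone libraries the antibody field contradicts the title, and the title was followed.

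All listed peaks were used. A gene was marked when a peak lay within 2 kb of any TSS of GENCODE M21, and marks overlapped at 1 bp or more. Gaps, base composition and motifs were read from GRCm38.p6 with pysam 0.24.0 (Python 3.11.15, NumPy 2.4.6, pandas 2.3.3), and the state calls were checked on simulated peaks. Named with values were the genes at the cluster ends, those with H3K4me3 in any cell type, those lacking H3K27me3 in any, and those whose state differed. The other lists were Hox cofactors, edge genes, RNAs of the clusters, forebrain and hindbrain position genes and cell type markers. Members and lists were chosen with earlier results of these data known. Alternatives were the study's filter (FDR below 0.05, fold above 3.5, or above 5 for OLIG2), fold above 5, 1 kb, 1 TSS per gene, 200 bp of overlap, merging and flanks. The closing of gaps under 1.5 kb, the runs of A or T and the span from Hoxb9 to Hoxb1 were added after the data were seen. Lists carry no depth, so no counting interval could be given. Some results on genes and a sequence are not reported here.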

Additional observations from a re-analysis of the deposited data

How the results depend on the processing

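With 1 library per condition no replicate could be left out, and no paired analysis was possible because no group has a second library. H3K27me3 near the TSS stayed at 38 Hox genes in all cell types under the study's filter, a 1 kb window and 1 TSS per gene. At fold enrichment above 5 it was 19 in NSCs. At that threshold H3K4me3 near the TSS was 18 in NSCs and 10 in OPCs, and overlapping marks 11 and 9. With 1 TSS per gene, 1 Hox gene had a TSS outside H3K27me3 in NSCs. Taking H3K27me3 peaks under 1 kb apart as 1 gave 18 peaks in OPCs and 25 in NFOs. Settings chosen after seeing the data moved further values. Without H3K4me3 peaks that held a run of A or T, 14, 16 and 18 Hox genes had H3K4me3 in NSCs, OPCs and NFOs, and without those within 100 bp of a run 14 in NSCs, 9 in OPCs and 3 in NFOs. With H3K27me3 gaps under 1.5 kb closed, Hox genes with a TSS outside were 1, 1 and 2 in NSCs, OPCs and NFOs, and separate peaks 12, 10 and 15.

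Coverage of the 4 clusters has no interval, so each change is given, for NSCs, OPCs and NFOs in turn. H3K27me3 covered 86.8%, 86.4% and 80.1% under the study's filter, 43.9%, 71.5% and 62.4% at fold above 5, 84.9%, 85.3% and 79.4% with 10 kb on each side, and 89.3%, 92.4% and 88.6% with gaps under 1.5 kb closed. H3K4me3 covered 8.10%, 2.60% and 3.26%, then 4.90%, 1.27% and 1.72%, then 9.75%, 3.03% and 3.53% under the first 3 of these. The number of OLIG2 peaks and the RIP-Seq counts stayed within 1.5 times. The causes were not tested.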
